A study of Mus musculus with 40 samples.

Results

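Endothelial genes of the liver were followed across the doses of the dioxin TCDD as 10 genes, chosen by name and matched to Ensembl identifiers, of 55359 in the count tables. The 6 genes typical of sinusoidal endothelium were *Stab1*, *Stab2*, *Lyve1*, *Clec4g*, *Oit3* and *Fcgr2b*, and the 4 genes used as markers of vascular endothelium were *Pecam1*, *Kdr*, *Vwf* and *Cd34*. All 10 passed the filter on low counts and were among 15373 genes tested. Every member had a higher mean at 30 μg/kg than in vehicle. The rise was called for 4 of 6 sinusoidal and 4 of 4 vascular genes, where 42.1% of all genes tested were called at that dose, 23.2% as higher and 18.9% as lower. Between vehicle and 30 μg/kg the median of the log2 fold changes was 0.63 over the sinusoidal genes, 1.46 over the vascular genes and 0.03 over all genes tested.

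RNA-Seq of whole liver was carried out on 40 male C57BL/6 mice, with 1 library per mouse and 5 mice in each of 8 groups. The vehicle group was gavaged with sesame oil alone, and the others with TCDD in that oil at 0.03, 0.1 or 0.3 μg/kg, at 1 or 3 μg/kg, or at 10 or 30 μg/kg, 1 gavage per 4 days over 28 days, from 30 to 58 days of age per the labels. TCDD is a persistent contaminant and a ligand of AhR, the aryl hydrocarbon receptor, which is a transcription factor. The comparisons addressed which endothelial transcripts changed with dose, and whether sinusoidal and vascular genes changed to the same degree.

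The liver's exchange vessels, the sinusoids, are lined by a specialised endothelium with open pores and no continuous basement membrane. These cells clear waste macromolecules from blood through scavenger receptors, lectins and Fc receptors, which is what most of the 6 sinusoidal genes encode. The larger portal and central vessels carry a continuous endothelium, for which von Willebrand factor and CD34 are customary markers. The division is not strict, since sinusoidal endothelium also expresses *Kdr* and *Pecam1*. Several of the transcripts are also made by other cells: *Fcgr2b* by macrophages and B cells, *Stab1* and *Lyve1* by some macrophages, *Vwf* by megakaryocytes and platelets, and *Cd34* by progenitor and stromal cells. In whole tissue, fewer cells of a type and less RNA per cell cannot be told apart, and the same holds for more cells and more RNA per cell.

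The libraries held 15.5 to 21.0 M counts in genes (median 17.5 M). Levels are given as CPM, the counts of a gene per M counts of its library, with library sizes scaled by TMM, a trimmed mean of the log ratios between libraries. *Alb*, the hepatocyte gene for albumin, had a mean of 83015 CPM in vehicle and 34527 CPM at 30 μg/kg. TMM factors lay between 0.868 and 0.965 in vehicle and between 1.22 and 1.40 at 30 μg/kg. Scaling to total counts alone moved the median log2 fold change of all genes at 30 μg/kg to 0.52, and the 10 members then stood at medians of 1.10 (sinusoidal) and 1.95 (vascular). A call needed a fold of 1.5 or more in either direction together with an adjusted p under 0.05, which came from the quasi-likelihood test of edgeR with Benjamini-Hochberg adjustment over all genes tested. All doses were compared with the same 5 vehicle mice.

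Promoters are shown for the 4 genes that were called at 30 μg/kg and matched in the promoter table, because TCDD acts through a DNA-binding receptor. The table, taken from RefSeq, matched 6 of the 10 genes, and those not matched were *Lyve1*, *Oit3*, *Pecam1* and *Vwf*. Each line gives the 250 bases before the start site, 5′ to 3′ on the strand of the gene, in build GRCm38.p6. Capitals mark the dioxin response element core GCGTG, searched on both strands (reverse complement CACGC). The windows are chr14:31168642-31168891 on the minus strand for *Stab1*, chr1:170976072-170976321 on the minus strand for *Fcgr2b*, chr5:75978456-75978705 on the minus strand for *Kdr* and chr1:194938571-194938820 on the plus strand for *Cd34*.
Stab1: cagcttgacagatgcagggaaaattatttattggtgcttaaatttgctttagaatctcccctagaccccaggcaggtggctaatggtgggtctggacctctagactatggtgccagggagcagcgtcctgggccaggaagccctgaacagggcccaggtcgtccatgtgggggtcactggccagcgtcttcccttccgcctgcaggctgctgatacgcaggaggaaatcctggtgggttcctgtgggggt
Fcgr2b: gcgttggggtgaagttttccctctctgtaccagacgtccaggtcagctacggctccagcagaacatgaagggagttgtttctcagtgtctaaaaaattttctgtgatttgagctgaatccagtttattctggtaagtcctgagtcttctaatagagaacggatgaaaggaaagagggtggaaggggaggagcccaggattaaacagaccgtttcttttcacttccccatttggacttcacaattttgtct
Kdr: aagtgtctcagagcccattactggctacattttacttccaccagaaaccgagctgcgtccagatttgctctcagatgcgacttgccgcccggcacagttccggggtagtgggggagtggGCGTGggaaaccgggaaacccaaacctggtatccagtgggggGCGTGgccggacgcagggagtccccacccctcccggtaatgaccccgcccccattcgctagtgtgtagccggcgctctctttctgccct
Cd34: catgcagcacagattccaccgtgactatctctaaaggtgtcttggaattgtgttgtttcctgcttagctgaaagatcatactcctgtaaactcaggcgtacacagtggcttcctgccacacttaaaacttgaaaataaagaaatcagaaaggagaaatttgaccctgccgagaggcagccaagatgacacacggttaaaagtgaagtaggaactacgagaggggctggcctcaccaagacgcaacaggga
The core GCGTG occurred in 1 of the 6 windows, that of *Kdr*, at 131 and 89 bases before the start site. It occurred in 28.2% of the windows of the same length before all 32851 promoters of the table. The ETS core GGAA (reverse complement TTCC), the core bound by a family of transcription factors active in endothelium, occurred in 6 of 6 member windows and in 93.4% of all. Such matches describe the letters of the window and no more.

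The sinusoidal genes were examined first. *Stab1* and *Stab2* encode stabilin-1 and stabilin-2, the scavenger receptors that define this endothelium. *Stab1* (ENSMUSG00000042286) was measured at 38.2, 44.0, 46.2, 49.3 and 51.4 CPM in the 5 vehicle livers. At 10 μg/kg its levels were 57.4, 57.6, 65.5, 69.5 and 72.7 CPM, and at 30 μg/kg they were 69.7, 78.5, 83.4, 95.5 and 109.9 CPM. All 5 livers at each of these doses lay above every vehicle liver, and all but 1 liver at 30 μg/kg lay above every liver at 10 μg/kg. *Stab1* differed from vehicle by a log2 value of 0.49 (SE 0.13, adjusted p = 0.00367) at 10 μg/kg, short of the fold threshold, and 0.93 (SE 0.13, adjusted p = 1.85e-07) at 30 μg/kg, where it was called. Up to 3 μg/kg the group means of *Stab1* stayed between 46.5 and 49.2 CPM, against 45.8 ± 5.13 CPM (SD, n = 5) in vehicle.

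*Stab2* (ENSMUSG00000035459), whose product takes up hyaluronan, showed the smallest change of the 10 genes at 30 μg/kg. Its levels were 41.9, 47.9, 55.2, 55.4 and 57.5 CPM in vehicle, and 60.3, 61.8, 64.5, 65.9 and 70.9 CPM at 10 μg/kg. Those at 30 μg/kg spread from 52.6 through 57.4, 66.2 and 77.7 to 86.5 CPM. The groups did not overlap at 10 μg/kg, but 2 of the 5 livers at 30 μg/kg fell within the vehicle range. Log2 fold changes of 0.33 (SE 0.13, adjusted p = 0.0437) at 10 μg/kg and 0.40 (SE 0.13, adjusted p = 0.00681) at 30 μg/kg both stayed under the fold threshold.

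*Lyve1* (ENSMUSG00000030787), a hyaluronan receptor shared with lymphatic endothelium, was the least abundant sinusoidal gene and had the largest SE of the 6. Vehicle livers had 3.30, 5.32, 6.22, 6.66 and 9.65 CPM, from 51 to 194 counts. The 5 livers at 10 μg/kg had 9.24, 9.59, 9.97, 10.4 and 11.1 CPM. Those at 30 μg/kg had 7.64, 8.40, 9.08, 9.13 and 14.8 CPM, so that 1 of 5 exceeded the highest vehicle liver. Its highest group mean was 10.9 ± 2.98 CPM (SD, n = 5), at 1 μg/kg. *Lyve1* had a log2 fold change of 0.80 (SE 0.26, adjusted p = 0.0827) at 1 μg/kg, 0.69 (SE 0.26, adjusted p = 0.042) at 10 μg/kg and 0.65 (SE 0.26, adjusted p = 0.0339) at 30 μg/kg, and it was called at the latter 2 doses. The call at 30 μg/kg was lost in 4 of 10 fits that left out 1 liver, with the lowest value without the highest liver of that dose (0.43, adjusted p = 0.177). The call at 10 μg/kg was lost in 9 of 10 such fits, with values of 0.53 to 0.71.

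*Clec4g* (ENSMUSG00000074491) encodes LSECtin, a C-type lectin of sinusoidal endothelium. Its levels in vehicle were 29.4, 30.5, 30.8, 33.3 and 36.8 CPM. They were 44.3, 47.2, 48.1, 49.5 and 53.2 CPM at 10 μg/kg, and 41.3, 43.9, 44.2, 47.0 and 49.4 CPM at 30 μg/kg. Every liver at both doses lay above every vehicle liver, and the same was true at 3 μg/kg, where the mean was 42.4 ± 3.57 CPM (SD, n = 5). *Clec4g* changed on the log2 scale by 0.40 (SE 0.11, adjusted p = 0.0168) at 3 μg/kg, 0.59 (SE 0.11, adjusted p = 7.35e-05) at 10 μg/kg and 0.49 (SE 0.11, adjusted p = 0.000303) at 30 μg/kg. Only the value at 10 μg/kg passed the fold threshold, at 1.505-fold, and that call was lost in 5 of 10 fits that left out 1 liver (0.55 to 0.58).

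*Fcgr2b* (ENSMUSG00000026656) encodes the inhibitory IgG receptor through which sinusoidal endothelium clears immune complexes. Vehicle livers had 30.4, 37.0, 38.8, 46.3 and 49.0 CPM. The livers at 10 μg/kg had 58.6, 60.3, 65.3, 65.5 and 66.2 CPM, and those at 30 μg/kg had 62.9, 71.9, 74.1, 74.2 and 79.1 CPM. Neither dose overlapped with vehicle. Relative to vehicle the log2 change was 0.46 (SE 0.12, adjusted p = 0.0069) at 3 μg/kg, and it was called at 10 μg/kg with 0.65 (SE 0.12, adjusted p = 3.14e-05) and at 30 μg/kg with 0.85 (SE 0.12, adjusted p = 8.39e-08). The call at 10 μg/kg was lost without the lowest vehicle liver (0.56).

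*Oit3* (ENSMUSG00000009654) encodes a secreted zona pellucida domain protein. Its levels were 16.3, 19.4, 21.1, 21.4 and 26.9 CPM in vehicle, 28.6, 28.8, 32.1, 32.5 and 32.9 CPM at 10 μg/kg, and 26.3, 29.6, 30.0, 33.9 and 40.2 CPM at 30 μg/kg. The groups were apart at 10 μg/kg, and 1 liver at 30 μg/kg overlapped with vehicle. A log2 fold change of 0.56 (SE 0.16, adjusted p = 0.00616) was measured at 10 μg/kg and 0.60 (SE 0.16, adjusted p = 0.00139) at 30 μg/kg, where the fold of 1.52 lay just past the threshold. That call was lost without either of the 2 highest livers at 30 μg/kg (0.49 and 0.56) and without either of the 2 lowest vehicle livers (0.52 and 0.57). At 10 μg/kg *Oit3* was called without the highest vehicle liver (0.66).

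**Figure D1:**
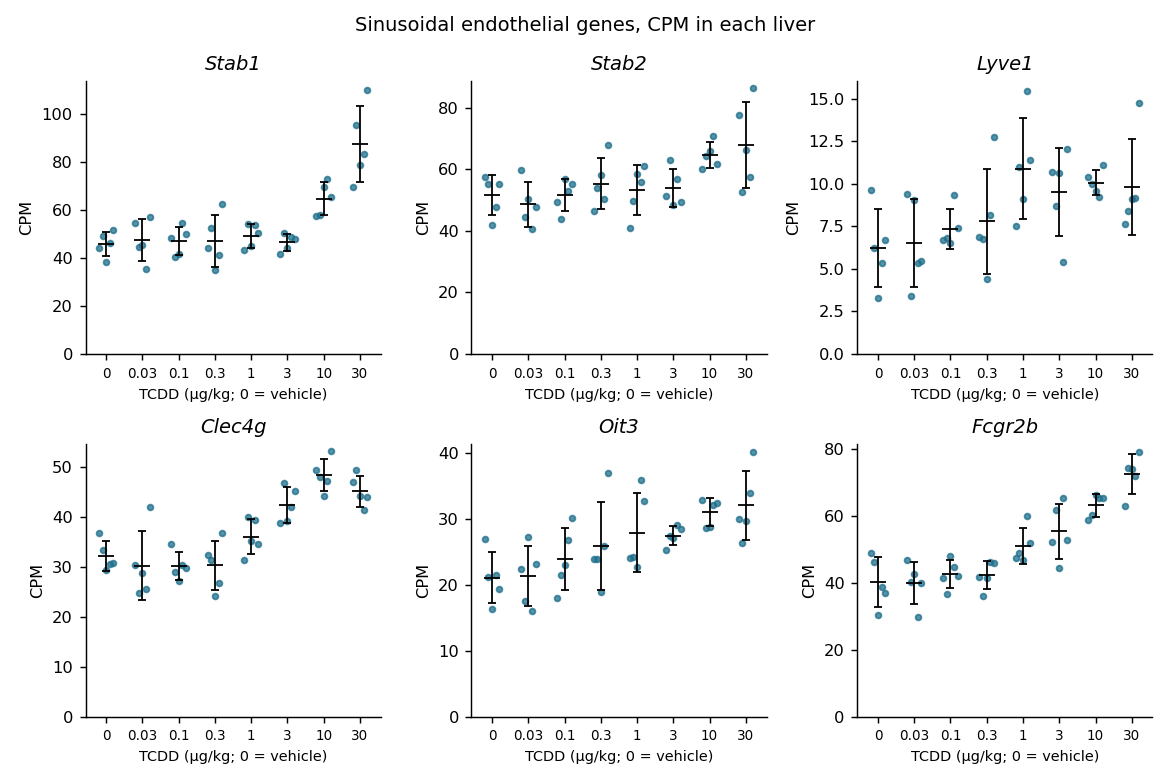
CPM of the 6 sinusoidal genes in each liver against TCDD dose in μg/kg, with points for livers and bars for the mean and SD of 5 mice. *Stab1* stayed near its vehicle mean of 45.8 CPM up to 3 μg/kg and then reached 87.4 CPM, while *Clec4g* had means of 48.4 CPM at 10 μg/kg and 45.2 CPM at 30 μg/kg.

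At 10 μg/kg 3 of the 6 sinusoidal genes were called, and 3 of the 4 vascular genes, all higher, where 21.8% of all genes tested were called and 13.6% were called as higher. No member was called at any lower dose, where the shares of all genes called were 6.75% at 3 μg/kg, 2.78% at 1 μg/kg, 0.468% at 0.3 μg/kg, 0.0976% at 0.1 μg/kg and 0.0195% at 0.03 μg/kg. At 3 μg/kg the adjusted p was under 0.05 for 4 members (*Clec4g*, *Fcgr2b*, *Pecam1* and *Kdr*) without the fold of 1.5. Over all 15373 genes tested it was under 0.05 for 1577, whatever their fold. Replicate 3 of vehicle was the lowest vehicle liver for 6 of the 6 sinusoidal genes and for *Kdr*, with 7.72% of its reads unmapped against 3.70% to 6.31% in the other vehicle libraries, and the part of library quality was not tested. Without it 0 sinusoidal genes were called at 10 μg/kg and 2 at 30 μg/kg. Without replicate 4 or 5 of vehicle, or replicate 1 or 5 of 10 μg/kg, 1 was called at 10 μg/kg, and without replicate 5 of 30 μg/kg 2 were called at 30 μg/kg. An unadjusted p under 0.05 was found for 6 members at 3 μg/kg, for 4 at 1 μg/kg and for 0 at the 3 lowest doses. Of all 15373 genes tested, 3460 had such a p at 3 μg/kg and 2319 at 1 μg/kg. At 0.3, 0.1 and 0.03 μg/kg 1127, 665 and 393 genes had one. DESeq2 and limma also called 0 members at each of these 5 doses. At the 3 lowest doses the group means of the 10 genes lay between 79.6% and 125.1% of the vehicle mean. They lay between 85.7% (*Cd34*) and 174.7% (*Lyve1*) at 1 μg/kg, and between 101.6% (*Stab1*) and 152.4% (*Lyve1*) at 3 μg/kg.

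The vascular genes were examined next. *Pecam1* (ENSMUSG00000020717) encodes CD31, the adhesion molecule of endothelial cell junctions. It was measured at 11.2, 13.8, 14.0, 16.7 and 18.7 CPM in vehicle, at 26.9, 27.4, 28.4, 28.8 and 38.3 CPM at 10 μg/kg, and at 29.2, 34.1, 37.9, 38.1 and 49.6 CPM at 30 μg/kg. Neither dose overlapped with vehicle. *Pecam1* had a log2 fold change of 0.53 (SE 0.18, adjusted p = 0.0482) at 3 μg/kg, and it was called at 10 μg/kg with 1.01 (SE 0.18, adjusted p = 2.1e-05) and at 30 μg/kg with 1.35 (SE 0.18, adjusted p = 3.29e-08).

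*Kdr* (ENSMUSG00000062960) encodes VEGF receptor 2, the main signalling receptor for VEGF-A, and its promoter window was the one that held the GCGTG core. Vehicle livers had 28.0, 31.3, 33.3, 41.6 and 42.9 CPM. The livers at 10 μg/kg had 53.6, 57.4, 64.2, 64.8 and 69.7 CPM, while those at 30 μg/kg had 43.2, 53.7, 56.2, 59.5 and 61.7 CPM. Both doses lay above vehicle without overlap, by a narrow margin for the lowest liver at 30 μg/kg. *Kdr* was called at 10 μg/kg with a log2 fold change of 0.80 (SE 0.15, adjusted p = 5.43e-05) and at 30 μg/kg with 0.63 (SE 0.15, adjusted p = 0.00046). The call at 30 μg/kg was lost without the lowest vehicle liver (0.55) or without either of the 2 highest livers at 30 μg/kg (0.58 each), since the fold then fell under 1.5.

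*Vwf* (ENSMUSG00000001930) encodes von Willebrand factor, which tethers platelets at sites of vessel injury. Its levels were 5.17, 6.73, 7.51, 10.4 and 12.6 CPM in vehicle, and 13.4, 15.2, 16.8, 17.5 and 20.1 CPM at 10 μg/kg. The livers at 30 μg/kg had 15.8, 21.3, 25.4, 29.6 and 33.6 CPM. The ranges of both doses lay above that of vehicle. *Vwf* was called at 10 μg/kg with a log2 fold change of 0.97 (SE 0.21, adjusted p = 0.000291) and at 30 μg/kg with 1.57 (SE 0.21, adjusted p = 3.2e-08).

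*Cd34* (ENSMUSG00000016494) encodes a sialomucin of vessel and progenitor cells and was the least abundant of the 10 genes. Its levels were 0.630, 0.931, 1.09, 1.42 and 3.42 CPM in vehicle, from 9 to 55 counts. They were 1.29, 2.17, 2.59, 2.87 and 3.26 CPM at 10 μg/kg, and 2.68, 5.28, 7.07, 7.13 and 7.80 CPM at 30 μg/kg. The highest vehicle liver exceeded all 5 livers at 10 μg/kg and 1 of the 5 at 30 μg/kg. *Cd34* differed from vehicle on the log2 scale by 0.69 (SE 0.40, adjusted p = 0.197) at 10 μg/kg and 1.99 (SE 0.40, adjusted p = 5.34e-05) at 30 μg/kg, where it was called. Without that 1 vehicle liver, *Cd34* was called at 10 μg/kg, with a log2 fold change of 1.24 (adjusted p = 0.0192).

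**Figure D2:**
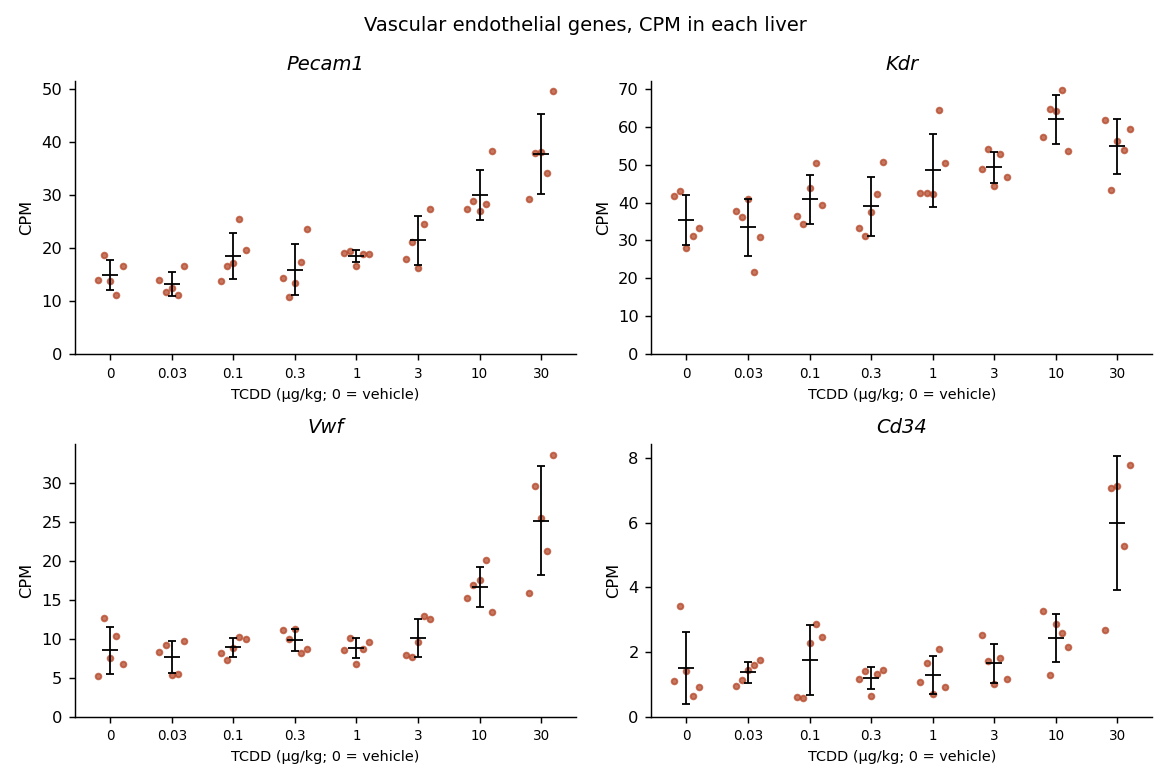
CPM of the 4 vascular genes in each liver against TCDD dose in μg/kg, with points for livers and bars for the mean and SD of 5 mice. Means at 30 μg/kg were 37.8 CPM for *Pecam1*, 54.9 CPM for *Kdr*, 25.1 CPM for *Vwf* and 5.99 CPM for *Cd34*, against 14.9, 35.4, 8.48 and 1.5 CPM in vehicle.

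The livers at 10 μg/kg did not overlap with vehicle for 5 of 6 sinusoidal and 3 of 4 vascular genes, all higher, where 23% of all genes tested were free of overlap and 12.9% lay higher. The same held at 30 μg/kg for 3 of 6 sinusoidal and 3 of 4 vascular genes, against 37.6% of all genes tested and 19.7% that lay higher. Overlap at 30 μg/kg was found for *Stab2*, *Lyve1*, *Oit3* and *Cd34*.

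A slope over the ordered doses, with steps from vehicle to 30 μg/kg, was positive with an adjusted p under 0.05 for 10 of 10 members, where 57.7% of all genes tested had a slope in either direction and 31.5% a positive one (edgeR's quasi-likelihood test, Benjamini-Hochberg). The log2 slope per step was 0.06 (SE 0.01, adjusted p = 0.000278) for *Stab2*, the shallowest, and 0.24 (SE 0.05, adjusted p = 3.83e-05) for *Cd34*, the steepest. *Vwf* had a slope of 0.21 (SE 0.03, adjusted p = 1.3e-08) and *Pecam1* one of 0.19 (SE 0.02, adjusted p = 3.46e-10). In the first of 2 numbering runs of the libraries, taken alone, 4 of 6 sinusoidal and 3 of 4 vascular genes passed, and 5 of 6 and 4 of 4 passed with dose on a linear scale. The remaining slopes lay between 0.09 for *Oit3* and 0.13 for *Fcgr2b*.

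Whether expression still changed between the 2 highest doses was tested as the difference of their means within the fit of all 40 libraries. The vehicle mean did not enter that difference, but the vehicle mice entered the scaling and the estimate of the spread. Of the members, 0 of 6 sinusoidal and 2 of 4 vascular genes were called as higher at 30 than at 10 μg/kg, where 21.1% of all genes tested were called and 10.6% were called as higher. The called genes were *Cd34*, with a log2 fold change of 1.30 (SE 0.38, adjusted p = 0.00767), and *Vwf*, with 0.60 (SE 0.20, adjusted p = 0.0186). The fold of *Vwf* was 1.51, and its call was lost in 5 of the 10 fits that left out 1 liver of these doses, with values down to 0.45 without the highest liver at 30 μg/kg. *Stab1* had an adjusted p of 0.00961 with a log2 fold change of 0.44 (SE 0.13), under the fold threshold. It was the 1 sinusoidal gene with an unadjusted p under 0.05, which 6249 of all 15373 genes tested had. With DESeq2 and limma 0 sinusoidal genes were called as well. The interval of the difference (95%) was -0.47 to 0.12 for *Kdr*, -0.32 to 0.12 for *Clec4g*, -0.55 to 0.48 for *Lyve1*, -0.27 to 0.36 for *Oit3* and -0.18 to 0.33 for *Stab2*. For *Fcgr2b* it was -0.04 to 0.43, and for *Pecam1* it was -0.01 to 0.68.

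**Figure D3:**
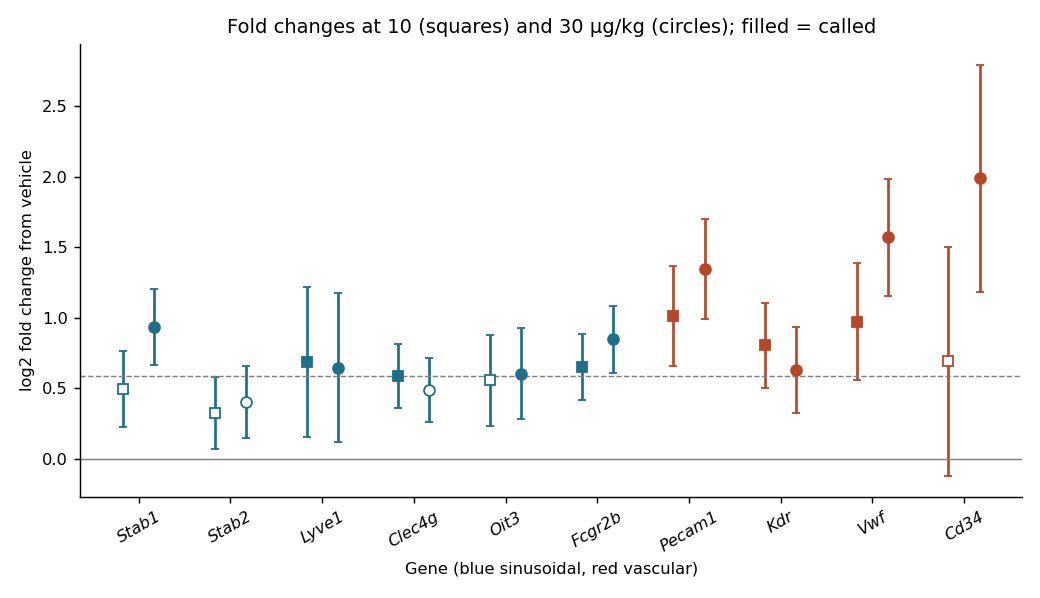
Log2 fold change from vehicle of the 10 genes at 10 μg/kg (squares) and 30 μg/kg (circles), with 95% intervals from the fit, filled where called, and a dashed line at a fold of 1.5. Values at 30 μg/kg reach 1.99 for *Cd34* among the vascular genes and 0.93 for *Stab1* among the sinusoidal genes.

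Levels were compared between genes per kilobase of exon, taken as the merged exons of all annotated transcripts of a gene, expressed or not. In vehicle the order was *Clec4g* at 13.1 ± 1.21 CPM per kb (SD, n = 5), *Oit3* at 7.55 ± 1.39, *Fcgr2b* at 6.96 ± 1.29, *Stab2* at 5.89 ± 0.746, *Stab1* at 4.45 ± 0.498, *Kdr* at 3.92 ± 0.725, *Pecam1* at 2.39 ± 0.462, *Lyve1* at 2.13 ± 0.791, *Vwf* at 0.528 ± 0.186 and *Cd34* at 0.206 ± 0.152. The differences between *Oit3* and *Fcgr2b*, *Fcgr2b* and *Stab2*, *Stab1* and *Kdr*, and *Pecam1* and *Lyve1*, neighbours in that order, were smaller than the larger of their SDs. At 30 μg/kg the order opened with *Clec4g* at 18.4 ± 1.26, *Fcgr2b* at 12.5 ± 1.03 and *Oit3* at 11.5 ± 1.90 CPM per kb. *Fcgr2b* lay above *Oit3* by less than the SD of *Oit3*. *Stab1* at 8.49 ± 1.52 then lay above *Stab2* at 7.77 ± 1.603, by less than the SD. *Kdr* at 6.08 ± 0.799 and *Pecam1* at 6.06 ± 1.21 CPM per kb were level, followed by *Lyve1* at 3.36 ± 0.971 and *Vwf* at 1.56 ± 0.433. *Cd34* closed the order in both groups, with 0.822 ± 0.284 CPM per kb at 30 μg/kg.

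The sinusoidal and vascular genes were then compared within each mouse, as the mean log2 CPM of the 6 genes minus that of the 4, a difference in which the scaling of the library cancels apart from the effect of the prior count. In vehicle livers the difference was 1.06, 1.34, 1.79, 1.84 and 2.06. At 10 μg/kg it was 1.18, 1.18, 1.21, 1.39 and 1.40, and at 30 μg/kg it was 0.70, 0.72, 0.80, 0.92 and 1.23. The livers at 10 μg/kg lay within the vehicle range, and 4 of the 5 livers at 30 μg/kg lay below it. The lowest vehicle value was that of replicate 2, the highest vehicle liver for all 4 vascular genes. Without it the vehicle range was 1.34 to 2.06, and 3 of the 5 livers at 10 μg/kg and 5 of 5 at 30 μg/kg lay below it. The group means were 1.62 ± 0.41 in vehicle, 1.56 ± 0.19 at 3 μg/kg, 1.27 ± 0.11 at 10 μg/kg and 0.88 ± 0.21 at 30 μg/kg (SD, n = 5), and those of the lower doses lay between 1.504 and 1.74. The mean at 30 μg/kg was 0.74 lower than in vehicle, a value of -0.74 that ranged from -0.998 without *Kdr* to -0.53 without *Cd34* when each gene was left out in turn. No p is given for this score, because the members had been chosen with earlier results of these data known. *Kdr* stood apart among the vascular genes: its log2 rise at 30 μg/kg, 0.63, was below those of *Stab1* (0.93) and *Fcgr2b* (0.85). It was level with that of *Lyve1* (0.65, SE 0.26). At 10 μg/kg the rise of *Kdr*, 0.80, was above those of all 6 sinusoidal genes, the highest of which was 0.69 for *Lyve1*.

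**Figure D4:**
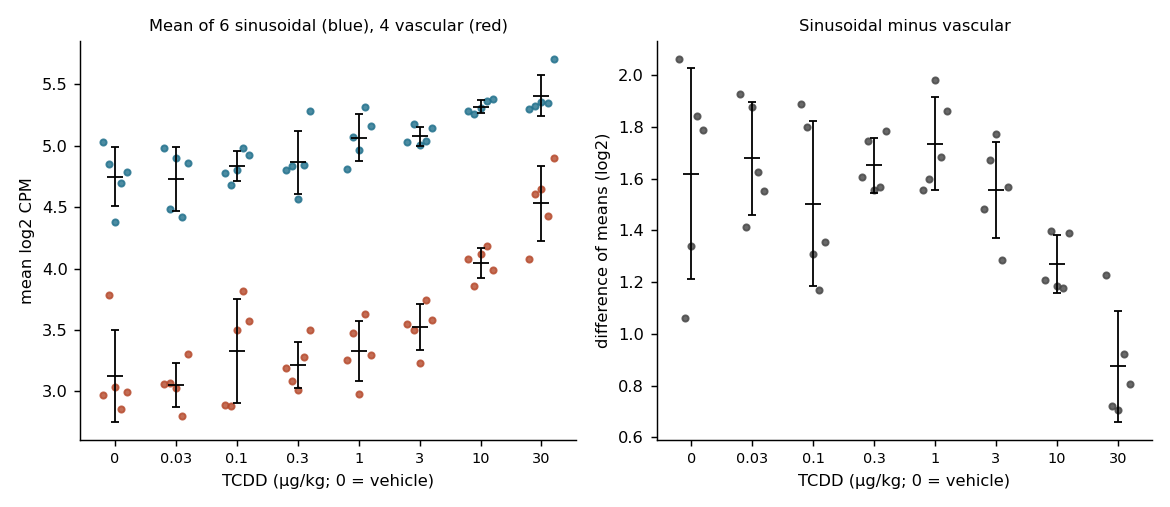
Mean log2 CPM of the 6 sinusoidal (blue) and 4 vascular genes (red) in each liver (left) and their difference (right) against TCDD dose in μg/kg, with the mean and SD of 5 mice. The difference has a mean of 1.62 in vehicle and 0.88 at 30 μg/kg.

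Other endothelial genes were described as lists, by counts and medians without a test of the list. The calls kept their direction under the other scalings in every list, but their number depended on the scaling. With total counts, which moved the median of all genes to 0.52, the calls of higher genes went from 4 to 8 of 9 further sinusoidal genes, from 11 to 14 of 16 general endothelial genes, from 3 to 5 of 10 genes of the VEGF and angiopoietin system and from 3 to 5 of 5 adhesion genes, and 2 calls of lower genes were lost, *Gp1ba* and *Sox9*. Of 9 further sinusoidal genes tested, 4 rose at 30 μg/kg, 0 fell and 5 were not called, against 42.1% of all genes tested that were called and 23.2% that were called as higher, and their median log2 fold change was 0.53. At 10 μg/kg 6 of the 9 were called, all higher, with a median of 0.79, where 13.6% of all genes were called as higher. The largest rise was that of *Clec1b*, which encodes CLEC-2, a receptor of platelets and also of sinusoidal cells. *Clec1b* rose by 2.37 (SE 0.20, adjusted p = 1.56e-12), from 4.33 to 22.5 CPM. Macrophage markers rose too, and which cells made the *Clec1b* transcripts was not tested. *Flt4*, VEGF receptor 3, rose by 1.20 (SE 0.18, adjusted p = 3.19e-07) and was called from 1 μg/kg onward. *Mrc1*, the mannose receptor, which macrophages also express, rose by 1.10 (SE 0.18, adjusted p = 2.45e-06). The values for *Gata4*, the transcription factor that specifies this endothelium, were 26.1 CPM in vehicle and 26.8 CPM at 30 μg/kg (log2 fold change 0.04, 95% interval -0.36 to 0.43), and *F8* (coagulation factor VIII) and *Dnase1l3* were not called at 30 μg/kg either, with 0.23 and 0.33. *Dnase1l3* was called as higher at 10 μg/kg, with 0.83 (SE 0.19, adjusted p = 0.00064), from 53.4 to 94.8 CPM. *Cd209b* did not pass the filter.

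Of 16 general endothelial genes tested, 11 rose at 30 μg/kg, 1 fell and 4 were not called, with a median of 0.89. The shares of all genes tested were 23.2% called as higher and 18.9% called as lower. *Sox17*, a transcription factor of arterial endothelium, rose by 1.62 (SE 0.23, adjusted p = 1.19e-07). *Cdh5*, VE-cadherin of the endothelial junction, rose by 1.47 (SE 0.14, adjusted p = 2.42e-11), from 21.0 to 58.2 CPM, and was called from 3 μg/kg onward. *Icam2* rose by 1.45 (SE 0.23, adjusted p = 1.65e-06). The gene that fell was *S1pr1*, a receptor for sphingosine 1-phosphate, with -1.30 (SE 0.21, adjusted p = 1.65e-06), from 86.5 to 35.2 CPM.

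Of 10 genes tested of the VEGF and angiopoietin system, 3 were called as higher at 30 μg/kg, 3 as lower and 4 were not called (median 0.45). Of all genes tested, 23.2% were called as higher and 18.9% as lower at that dose. Of the ligands, *Vegfb* fell by 1.57 on the log2 scale (SE 0.17, adjusted p = 4.58e-10), from 24.9 to 8.41 CPM, and was called as lower from 1 μg/kg onward. *Vegfa*, the ligand of the *Kdr* product, fell by 1.13 (SE 0.19, adjusted p = 4.2e-06), from 179.7 to 82.1 CPM. The co-receptor *Nrp1* fell by 1.40 (SE 0.19, adjusted p = 5.22e-08), from 61.7 to 23.4 CPM. *Angpt2*, a ligand of the TIE2 receptor, rose by 1.83 (SE 0.36, adjusted p = 3.68e-05), from 0.848 to 3.04 CPM. The receptor *Flt1* was at 10.6 CPM in vehicle and 10.4 CPM at 30 μg/kg (log2 fold change -0.03, 95% interval -0.38 to 0.32, with the opposite sign under total-count scaling). *Pgf* did not pass the filter.

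Of 7 genes for signals that liver endothelium can send to its neighbours, 6 rose at 30 μg/kg, 0 fell and 1, the Notch ligand *Dll4*, was not called (median 1.24). Among all genes tested 23.2% were called as higher at that dose. These are levels in whole liver, and which cells made the transcripts was not tested. *Dll4* was called as higher at 10 μg/kg, with 0.70 (SE 0.21, adjusted p = 0.00761). *Edn1*, the vasoconstrictor endothelin-1, rose by 1.84 (SE 0.42, adjusted p = 0.000318), with 5 to 13 counts per vehicle liver. The WNT ligands *Wnt2* and *Wnt9b* rose by 1.40 (SE 0.26, adjusted p = 2.27e-05) and 1.28 (SE 0.32, adjusted p = 0.00085). Of 5 adhesion genes tested, 3 rose at 30 μg/kg and 2 were not called (median 1.79), against 23.2% of all genes tested called as higher. *Vcam1*, the adhesion molecule for leukocytes, rose by 3.17 (SE 0.27, adjusted p = 1.84e-12), from 3.85 to 34.9 CPM. *Mcam* rose by 1.89 (SE 0.18, adjusted p = 1.42e-11), and *Icam1* by 1.79 (SE 0.26, adjusted p = 2.55e-07). *Sele* did not pass the filter.

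Markers of other cells that share these transcripts moved as well. At 30 μg/kg 23.2% of all genes tested were called as higher and 18.9% as lower. All 11 macrophage markers were called as higher at 30 μg/kg, and their summed level went from 215–298 CPM in vehicle to 767–1934 CPM, with *Marco* at a log2 fold change of 5.35, *Lyz2* at 3.29 and *Cd68* at 3.03. The 4 B cell markers reported were called as higher, from 3.15–4.34 to 9.73–13.3 CPM summed, with *Cd22* at 2.30, *Cd79b* at 1.39 and *Ms4a1* at 1.37. Their part in the rises of *Fcgr2b*, *Stab1*, *Lyve1* and *Mrc1* was not tested, nor was their part in those of *Clec1b* and the other endothelial genes listed. Of 4 platelet markers tested, 2 were called as higher, *Pf4* at 3.66 and *Ppbp* at 1.44, and 1 as lower, *Gp1ba* at -1.31, and the summed level was 5.72–7.70 CPM in vehicle and 5.83–23.8 CPM at 30 μg/kg. Both further platelet markers, *Gp9* and *Treml1*, had at most 4 counts per vehicle liver, and the part of platelets in the rises of *Vwf* and *Clec1b* was not tested. At 10 μg/kg 10 of 11 macrophage markers, 3 of 4 B cell markers and 0 of 4 platelet markers were called as higher. The share of all genes tested called as higher was 13.6% at that dose. The summed level of the platelet markers at 10 μg/kg was 6.53–8.65 CPM, and *Pf4* had a log2 fold change of 1.33 (SE 0.55, adjusted p = 0.0613).

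Of 7 stellate cell and fibroblast markers, 6 were called as higher, with summed levels of 181–286 CPM in vehicle and 624–1381 CPM at 30 μg/kg, led by *Col1a1* at 4.54, *Col3a1* at 2.85 and *Reln* at 2.73. Both mast cell and progenitor markers tested were called as higher, *Gata2* at 2.17 and *Kit* at 1.28, from 6.37–11.2 to 18.3–26.1 CPM summed. The mast cell marker *Cpa3* had at most 1 count per vehicle liver and at most 2 counts per liver at 30 μg/kg. Which cells made the *Gata2* and *Kit* transcripts was not tested. The part of mast and progenitor cells in the rise of *Cd34* was not tested either. Of 7 hepatocyte markers, 5 were called as lower and 0 as higher, led by *Apoa1* at -3.20, *Cps1* at -2.26 and *Ttr* at -1.54, and their summed level went from 114878–139972 CPM to 37814–78966 CPM. Of 4 cholangiocyte markers, 3 were called as higher (*Epcam* at 2.83, *Krt7* at 2.702 and *Krt19* at 2.15) and 1 as lower. Their summed level was 14.4–19.3 CPM in vehicle and 15.9–95.8 CPM at 30 μg/kg, so that the ranges overlapped. Of 4 lymphatic and mesothelial markers, 2 were called as higher, *Pdpn* at 1.83 and *Msln* at 1.43, and 1, *Ccl21a*, as lower at -3.37. The summed level of these markers was 3.08–9.77 CPM in vehicle and 4.49–16.5 CPM at 30 μg/kg. These counts stand beside 23.2% of all genes tested called as higher and 18.9% called as lower at 30 μg/kg. The part of a changed make-up of the liver RNA in the values of the members and of the other endothelial lists was not tested.

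**Figure D5:**
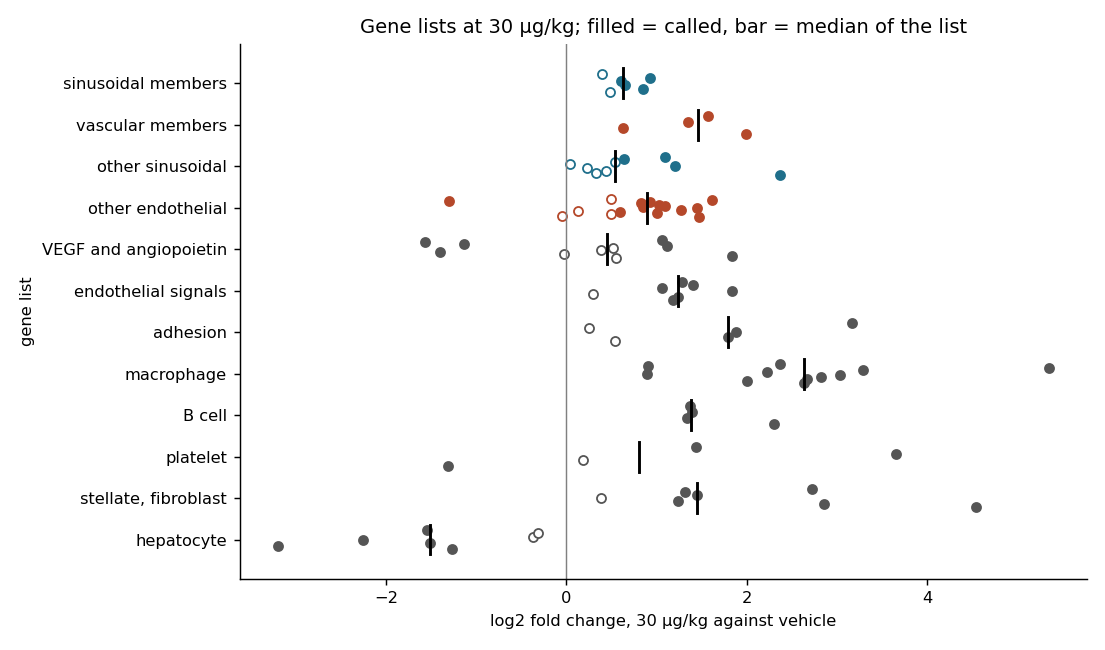
Log2 fold change at 30 μg/kg against vehicle of each tested gene in 12 lists, filled where called, with a bar at the median of the list. The medians were 0.63 for the sinusoidal members, 1.46 for the vascular members, 2.63 for macrophage markers and -1.51 for hepatocyte markers.

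The genes whose level followed the members most closely over the 40 livers were found by Pearson's r with the mean standardised level of each set, as a description. For the sinusoidal set they were *Gpihbp1* (r = 0.91), the capillary anchor of lipoprotein lipase, *Flt4* (0.90), *Tmem106a* (0.90), *Aqp1* (0.89) and *Hspg2* (0.89), the basement membrane proteoglycan perlecan. For the vascular set they were *Hspg2* (0.94), *Cdh5* (0.94), *Itga9* (0.93), *Aqp1* (0.93), the water channel, and the collagen gene *Col1a1* (0.93). After the mean of each dose group was subtracted, *Gpihbp1* (0.80), *Hspg2* (0.76), *Tmem106a* (0.74), *Robo4* (0.73) and *Flt4* (0.72) led for the sinusoidal set, and *Hspg2* (0.81), *Ano6* (0.80), *Mmrn2* (0.78), *Aqp1* (0.75) and *Tspan7* (0.73) for the vascular set. The livers share the dose and the library scaling, and genes of 1 liver share its cell make-up. Among the members, the median r over doses was 0.68 for 15 sinusoidal pairs, 0.73 for 6 vascular pairs and 0.67 for 24 pairs across the sets. Within dose groups these medians were 0.49, 0.32 and 0.35.

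The sample titles number the libraries in 2 runs, 19 libraries with numbers up to 27 and 21 libraries with numbers from 28. At 30 μg/kg the log2 fold change in the first and the second run was 0.90 and 0.86 for *Stab1*, 0.70 and 0.96 for *Fcgr2b*, 1.10 and 1.51 for *Pecam1*, and 1.42 and 1.62 for *Vwf*, and each was called in both. It was 0.32 and 0.41 for *Stab2*, 0.30 and 0.85 for *Lyve1*, and 0.52 and 0.47 for *Clec4g*, none of them called in either run. It was 0.38 and 0.73 for *Oit3*, 0.47 and 0.78 for *Kdr*, and 1.30 and 3.07 for *Cd34*, each called in the second run alone. The fold change did not pass a test of the difference between runs for any member at 10 or 30 μg/kg (smallest for *Cd34* at 30 μg/kg, a difference of 1.79, adjusted p = 0.699, edgeR with an interaction term).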

How the data were processed

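Livers of 40 male C57BL/6 mice, grouped by the dose in the labels, gave 1 RNA-Seq library each (paired-end, 150 bp). The authors deposited unnormalized read counts per gene for each library, with unstranded and strand-specific columns. Reads on the first strand made up 50.0% to 50.3%, so the unstranded counts were used, and overlapping or antisense genes cannot be told apart. The processing notes name Trimmomatic 0.39, FastQC 0.11.7 and STAR 2.7.3a, and builds GRCm39 and mm10 without their role, so that no coordinates are given for the counts. Gene names and exon lengths came from GENCODE M21. The authors also deposited normalized log2 values, which entered limma as they were, where a log2(value + 1) step had been planned for linear values.

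The edgeR package 4.0.16 (R 4.3.3) was applied to these counts after filterByExpr (minimum count 10, minimum total count 15) and TMM scaling. All 40 libraries entered 1 quasi-likelihood fit, which had a mean for each dose and no covariate. Each dose was tested against vehicle with Benjamini-Hochberg adjustment over 15373 genes. The study's posterior probability was not run, and edgeR took its place beside the same fold threshold of 1.5. SD is between mice, SE is from the fit, and a prior count of 2 was used for log2 CPM. The script was tested on simulated counts. No replicate pair agreed within sampling noise. P-values for a difference between dose means judge it against the spread between mice, estimated over all groups together. Those for a slope come from a separate fit of a line over the doses. There the spread is that around the line, which also takes in departures of the dose means from it.

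The members, lists and tests were chosen with earlier results of these data known. The named genes were the 10 members, up to 3 called genes of each list with the largest change at 30 μg/kg, and the 5 genes most like each set. Others (*Gata4*, *F8*, *Dnase1l3*, *Flt1*, *Dll4*, the platelet and mast cell markers not called or not tested, and *Alb*) were named after their values were seen. The alternatives were total-count scaling, size factors by relative log expression, no filter, DESeq2 1.42.0, limma 3.58.1 on the log2 values, vehicle and 1 dose alone, the numbering run (with or without order in the title triples) as covariate, each run alone, no fold threshold, linear dose, and leaving out each library. The other scalings of the lists and the vehicle range without each liver were added after the data were examined. Of the B cell markers, 1 is not reported here. Depth limits the low genes most: *Cd34* had 9 to 55 counts per vehicle library.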

Additional observations from a re-analysis of the deposited data

Results flagged for a closer look

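In 4 of 88 groups of 5 livers checked, over the 10 genes and the sinusoidal minus vascular difference, 1 library lay apart from the other 4 (Dixon's ratio at the 95% level). Chance flags about 1 in 20 groups. *Cd34* in vehicle replicate 2 was 3.42 CPM (55 counts), against 0.630 to 1.42 CPM in the other vehicle livers. *Lyve1* in replicate 5 of 30 μg/kg was 14.8 CPM, against 7.64 to 9.13 CPM in the others. *Pecam1* was low in replicate 3 of 1 μg/kg, at 16.5 CPM against 18.8 to 19.4 CPM, and high in replicate 5 of 10 μg/kg, at 38.3 CPM against 26.9 to 28.8 CPM. The cause was not tested.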

How the results depend on the processing

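Of 432 recomputed counts of called members, 396 stayed within 1.5 times the reported count. Of 620 recomputed log2 fold changes of single members, 541 kept their direction and side of the threshold and 8 changed sign, all of them between 10 and 30 μg/kg, where none was called. The cause was not tested for the changes below, apart from the fold threshold, which by its construction removes the size criterion. No paired analysis was possible because replicate numbers only follow accession order and tie no mouse of 1 group to a mouse of another.

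For the sinusoidal genes at 10 μg/kg, where 3 were called, total-count scaling called 5, run and order as covariate 1, run 1 alone 0 and no fold threshold 6. At 30 μg/kg, where 4 were called, run and order, run 1 alone and limma on the log2 table each called 2, while total-count scaling and no fold threshold each called 6. At 1 μg/kg total-count scaling and run and order called 1 each, and at 3 μg/kg run 2 alone called 1 and no fold threshold 2, against 0. Between 10 and 30 μg/kg total-count scaling and no fold threshold called 1 each, against 0. For the vascular genes at 3 μg/kg, total-count scaling called 1 and no fold threshold 2, against 0. At 30 μg/kg run 1 alone called 2 of the 4. Between 10 and 30 μg/kg, where 2 were called, run 1 alone called 0, and run and order, run 2 alone and limma called 1 each.

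Leaving out 1 library gave 0 to 1 sinusoidal genes at 1 μg/kg (1 without vehicle replicate 1), 0 to 4 at 10 μg/kg and 2 to 4 at 30 μg/kg. It gave 0 to 1 vascular genes at 3 μg/kg (1 without vehicle replicate 2 or replicate 1 or 3 of 3 μg/kg) and 1 to 2 between 10 and 30 μg/kg (1 without replicate 1 or 5 of 10 μg/kg or replicate 2, 3 or 5 of 30 μg/kg).

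The sign changes between 10 and 30 μg/kg were 0.23 for *Lyve1*, 0.18 for *Clec4g* and 0.092 for *Kdr* under total-count scaling, -0.13 for *Oit3* in run 1 alone and 0.11 for *Lyve1* in run 2 alone. Without 1 library of these doses, *Stab2* ranged from -0.049 to 0.14, *Lyve1* from -0.25 to 0.037 and *Oit3* from -0.069 to 0.092. *Cd34*, with 9 to 55 counts per vehicle library, ranged from 1.30 to 3.07 at 30 μg/kg over the alternatives.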
